A study of Mus musculus with 6 samples.

Results

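The genes described here are 8 genes linked to M cells and to the follicle-associated epithelium, the single cell layer that covers the lymphoid follicles of the gut. They are Plet1, Gp2, Spib, Tnfaip2, Marcksl1, Anxa5, Tnfrsf11a and Ubd, taken by exact gene symbol in the platform annotation, and the question was whether the other 7 follow Plet1 from pool to pool. They were measured by 16 of 45037 probe sets and are 8 of 18193 genes with a probe set of a single symbol. The group was selected on the earlier known log2 values of Plet1, whose difference between genotypes was large in 1 cage of these same arrays, and the other genes were added as M cell genes. The values below are therefore descriptions of the members and not independent evidence.

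Ileal mucosa, taken at the terminal ileum, came from female 129S6 mice aged 3 months. One group was duoxa-/-, mice that lack the DUOX maturation factors, and the other was wt, littermates that lived in the same cages. There were 3 duoxa-/- and 3 wt samples from 3 cages, each cage being 1 litter, and each sample was RNA pooled from 2 to 3 animals of 1 genotype in 1 cage and read on 1 single-colour array. Having 3 arrays in a group limits every comparison, a pool hides the spread between its animals, and p-values measure the spread between pools.

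M cells are epithelial cells that carry particles and bacteria from the gut lumen to the lymphoid tissue beneath. They form when stromal cells under the follicle present the cytokine RANKL to its receptor RANK on epithelial cells, which turns on NF-κB signalling and the transcription factor Spi-B, and mature M cells then display the bacterial receptor GP2. In the ileum they sit on Peyer's patches, so a mucosal sample holds few of them unless it takes in a patch.

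Sequences upstream of 3 members are shown because their values fall into different patterns: Plet1 and Ubd varied most between pools, on different sides in some of them, and Gp2 is the defining receptor of mature M cells. Each is the 250 bases before the annotated start of the gene in RefSeq, assembly GRCm38.p6, read 5′ to 3′ on the gene's strand. They lie at chr9:50494275-50494524 (Plet1, plus strand), chr17:37193642-37193891 (Ubd, plus strand) and chr7:119459273-119459522 (Gp2, minus strand). All 8 members had such a window. Capitals mark matches, on either strand, to the κB motif GGGNNTTTCC or to the TATA box TATAAA, and the searched motifs GAGGAA (the core bound by Spi-B and PU.1) and GAAANNGAAA (the core of interferon response elements) had no match in these 3.
Plet1: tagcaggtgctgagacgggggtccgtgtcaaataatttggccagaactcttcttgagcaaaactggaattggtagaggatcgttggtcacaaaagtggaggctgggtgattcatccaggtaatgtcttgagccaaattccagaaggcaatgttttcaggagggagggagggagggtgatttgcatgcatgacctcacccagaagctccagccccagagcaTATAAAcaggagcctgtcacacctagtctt
Ubd: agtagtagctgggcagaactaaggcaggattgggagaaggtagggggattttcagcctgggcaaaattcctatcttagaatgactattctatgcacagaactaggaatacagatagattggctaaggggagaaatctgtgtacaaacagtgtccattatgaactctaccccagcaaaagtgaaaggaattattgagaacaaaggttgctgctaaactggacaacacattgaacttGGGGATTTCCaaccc
Gp2: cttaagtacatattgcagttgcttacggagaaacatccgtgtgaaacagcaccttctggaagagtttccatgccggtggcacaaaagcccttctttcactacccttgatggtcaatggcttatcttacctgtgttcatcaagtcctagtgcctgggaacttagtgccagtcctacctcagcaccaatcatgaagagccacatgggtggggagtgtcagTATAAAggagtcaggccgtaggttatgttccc
The Ubd window holds 1 κB match, which starts 15 bases before the annotated start, and 1.41% of the 32851 windows of this length in the table hold one. Plet1 and Gp2 each hold a TATA box, 30 and 32 bases before the start, as 12.4% of windows do. Of the 8 members, Marcksl1 alone holds GAGGAA, found in 23.3% of windows, and none holds GAAANNGAAA, found in 2.98%. A match is only a run of letters in the window and was not tied to the values of the arrays.

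Levels are log2 values of probe sets as the authors deposited them, and the probe set of a gene that was brightest on average stands for it. The label of the group was first set against the markers. Gp2, the most specific of the M cell genes listed, was dim: its only probe set (1449452_a_at) read 5.48, 5.42 and 5.80 in the duoxa-/- pools of cages 1, 2 and 3 and 5.88, 5.78 and 5.58 in the wt pools. All 6 values lie under 6.58, the median of the means of all probe sets, and 36.8% of probe sets had a lower mean than Gp2. No detection calls were used, so whether Gp2 transcripts were present cannot be read from these values. Gp2 is also made by pancreatic acinar cells. Of 9 acinar genes listed, 6 were measured and 2 of them had a mean at or above the median, and the mean of the list lay farthest above its own average in the wt pool of cage 1 (0.51). A single gene, Pnliprp1, carried most of this with a deviation of 2.46 in that pool, and the other 5 deviated by 0.13 on average. Of 15 further M cell genes, 10 had a mean at or above the median of all probe sets. The dimmest were Sox8, a transcription factor of maturing M cells in mice, which averaged 4.05, and Onecut2, which averaged 4.61. Clu (mean 11.11), Prnp (11.09) and Fabp5 (10.75) were the brightest, and these are genes that other mucosal cells also express. Onecut2 and Fabp5 are named after their values were seen. Follicle tissue was visible in every pool: Cxcl13, the chemokine of B cell follicles, read 11.38, 11.21 and 11.25 in duoxa-/- pools and 10.43, 11.27 and 11.28 in wt pools. Ms4a1, which encodes the B cell surface protein CD20, averaged 10.73. The members other than Gp2 are therefore named here as genes that M cells or the follicle-associated epithelium express, and their levels cannot be ascribed to those cells. In a mucosal sample, fewer cells of a type and less RNA per cell cannot be told apart.

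As a check of the genotype, Duoxa2 read 5.90, 5.55 and 5.92 in duoxa-/- pools against 8.81, 8.36 and 7.24 in wt pools. Its unadjusted limma p was 7.6e-05, and its limma adjusted p over all probe sets was nonetheless 0.794. This was the smallest adjusted p of the table, but other probe sets shared it, so it does not rank Duoxa2. Duoxa2 was called only without the wt pool of cage 3 (adjusted p = 0.0158). The 6 arrays had medians of 6.55 to 6.60 and correlated with r of 0.994 to 0.998 across probe sets. The wt pool of cage 1 had the highest smooth muscle genes (0.50 above their own average) and the lowest B cell and follicle genes (-0.31).

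Plet1, a glycosylated protein of the epithelial cell surface, had the widest spread of the members. Its probe set (1423933_a_at) read 10.86, 10.51 and 8.26 in the duoxa-/- pools of cages 1, 2 and 3, and 7.83, 10.45 and 7.49 in the wt pools. The pools fell into 2 ranges with a gap of 2.19 between them: both pools of cage 2 and the duoxa-/- pool of cage 1 were high, and both pools of cage 3 and the wt pool of cage 1 were low. The genotypes overlapped. From the lowest to the highest pool Plet1 differed 10.3-fold, a span of 3.36 on the log2 scale, against a median span of 0.338 over all probe sets.

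The other probe sets of Plet1 differ in how far they follow this. The probe set 1454254_s_at read 8.89, 8.70 and 6.85 in duoxa-/- pools and 6.28, 8.30 and 6.44 in wt pools, with the same high and low pools. The probe set 1423934_at lay between 6.57 and 6.90 in all 6 pools, near the median of the array, and did not follow it. Its values give no level of Plet1 that can be set against the others, since levels of different probe sets are not comparable.

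**Figure D1:**
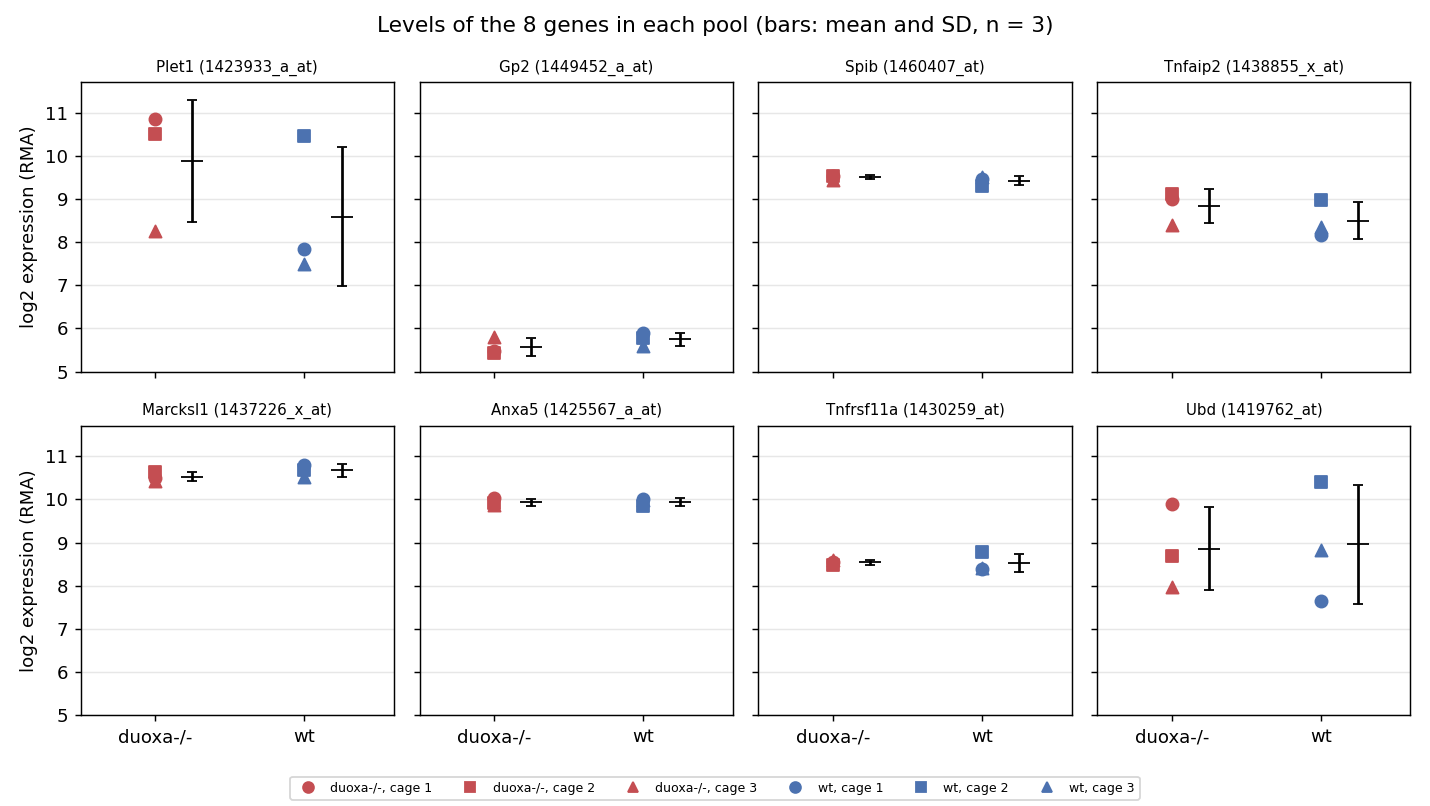
Log2 expression of the 8 genes (vertical axis, deposited RMA values) in the 3 duoxa-/- and 3 wt pools, with a marker shape for each cage and bars for the mean and SD (n = 3). Plet1 and Ubd span 3.36 and 2.74 log2 units with overlapping genotypes, Tnfaip2 spans 0.94, and the other 5 genes span less than 0.5.

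Ubd, which encodes FAT10, a ubiquitin-like modifier induced by interferon gamma and TNF, was the other member that varied widely. It read 9.89, 8.69 and 7.98 in the duoxa-/- pools of cages 1, 2 and 3, and 7.66, 10.40 and 8.82 in the wt pools. It was highest in the wt pool of cage 2 and lowest in the wt pool of cage 1, and the genotypes overlapped over nearly the whole range, a 6.68-fold span.

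Tnfaip2 encodes M-Sec, a TNF-induced protein that helps to form thin bridges between cells and is strongly expressed by M cells in mice. Its 3 probe sets disagreed. The brightest (1438855_x_at) read 9.003, 9.11 and 8.39 in duoxa-/- pools and 8.17, 8.97 and 8.36 in wt pools, with the same 3 pools above 8.9 that were high in Plet1. The probe set 1416273_at read 7.69, 7.73 and 7.52 in duoxa-/- pools and 7.78, 7.98 and 7.57 in wt pools and was highest in the wt pool of cage 2. The third, 1457918_at, lay between 5.79 and 5.95, below the median of the array. A probe set whose name ends in _x_at can hold probes that also match other transcripts, so the pattern of the brightest one may not be that of Tnfaip2 alone. The 2 other probe sets do not show it.

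Spib, the Ets-family transcription factor needed for M cell maturation, was bright and even. It read 9.53, 9.52 and 9.44 in duoxa-/- pools and 9.46, 9.30 and 9.51 in wt pools, a span of 0.23. B cells and plasmacytoid dendritic cells also express Spib, and beside it the B cell and follicle list (16 of 18 genes measured) deviated from its own average by 0.20, 0.05 and -0.01 in duoxa-/- pools and by -0.31, 0.03 and 0.04 in wt pools. The B cell list was lowest in the wt pool of cage 1 and Spib in the wt pool of cage 2. The part of B cells in the Spib values was not tested.

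Tnfrsf11a encodes RANK, the receptor that starts M cell differentiation. Its brighter probe set (1430259_at) read 8.54, 8.49 and 8.60 in duoxa-/- pools and 8.40, 8.77 and 8.41 in wt pools. The other, 1419214_at, read 7.51, 7.40 and 7.72 in duoxa-/- pools and 7.94, 7.36 and 7.58 in wt pools. The 2 probe sets ran against each other in cage 1 and cage 2: the wt pool of cage 1 was the lowest on the first and the highest on the second, and the wt pool of cage 2 the reverse. No order of pools can be given for Tnfrsf11a from them.

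Marcksl1, a membrane and actin-binding relative of the protein kinase C substrate MARCKS, had 4 probe sets. The brightest (1437226_x_at) read 10.50, 10.64 and 10.43 in duoxa-/- pools and 10.80, 10.69 and 10.52 in wt pools. The probe set 1415922_s_at read 10.09, 10.20 and 10.27 in duoxa-/- pools and 10.76, 10.28 and 10.23 in wt pools. On all 4 probe sets the wt pool of cage 1 was the highest. That pool also had the highest smooth muscle genes, whose 8 members deviated by -0.34, 0.05 and -0.13 in duoxa-/- pools and by 0.50, -0.13 and 0.06 in wt pools. The acinar (0.51), tuft cell (0.35) and enterocyte (0.15) lists were highest in that pool too. The part of smooth muscle or of these other cells in the Marcksl1 values was not tested.

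Anxa5, the phosphatidylserine-binding annexin, was the steadiest member. It read 10.03, 9.91 and 9.88 in duoxa-/- pools and 10.02, 9.84 and 9.98 in wt pools, a span of 0.19 that is narrower than the median span of all probe sets.

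None of the members separated the genotypes after adjustment. With limma fitted on all 45037 probe sets, 0 of the 16 member probe sets were called at an adjusted p under 0.05, where 0% of all probe sets were called higher and 0% lower in duoxa-/- pools. Their adjusted p lay between 0.795 and 0.991, and 0 of them had an unadjusted p under 0.05, against 5.98% of all probe sets. These p-values, the count at an unadjusted p under 0.05 and the intervals below are from the fit without a cage term. That fit does not use the pairing of pools by cage. The count was not made for the fit with cage as a block and may differ there. Plet1 averaged 9.88 ± 1.41 in duoxa-/- pools and 8.59 ± 1.62 in wt pools (SD, n = 3 each), a difference of 1.29 with a 95% interval of -0.64 to 3.21 (limma). The standard error of this difference was 0.85, and 0.48 with cage as a replicate block, so its interval depends on the fit. For the Plet1 probe set 1454254_s_at, with a difference of 1.14, the standard errors were 0.63 and 0.40. Tnfaip2 averaged 8.84 ± 0.39 and 8.50 ± 0.42 in duoxa-/- and wt pools, a difference of 0.34 (interval -0.20 to 0.87). Ubd averaged 8.85 ± 0.96 and 8.96 ± 1.37, a difference of -0.11 (interval -1.61 to 1.40). For the other 5 genes the differences lay between -0.18 (Gp2) and 0.07 (Spib), with standard errors of 0.09 to 0.12. Of the 8 genes, 4 were higher and 4 lower in duoxa-/- pools, with a median difference of 0.0048, beside 0.0013 over all probe sets. The intervals of Plet1 and Ubd are wide enough to hold differences of more than 2-fold in either direction for Ubd and in the upward direction for Plet1.

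Within cages the differences of single genes often changed sign. Plet1 differed, duoxa-/- minus wt, by 3.03 in cage 1, 0.07 in cage 2 and 0.76 in cage 3. Ubd differed by 2.23 in cage 1, -1.71 in cage 2 and -0.84 in cage 3. In cage 1 both genes were therefore far higher in the duoxa-/- pool, while in the other cages they did not move together. Tnfaip2 differed by 0.83, 0.14 and 0.03, and Gp2 by -0.41, -0.36 and 0.22. Of the 16 probe sets, 3 were higher in duoxa-/- in all 3 cages (15.3% of all probe sets were) and 3 were lower in all (14.3% were). In 1 of the 16, 1435627_x_at of Marcksl1, the genotypes did not overlap, against 11.6% of all probe sets. With 1 pool per genotype and cage, a difference between cages in the effect of genotype could not be tested.

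**Figure D2:**
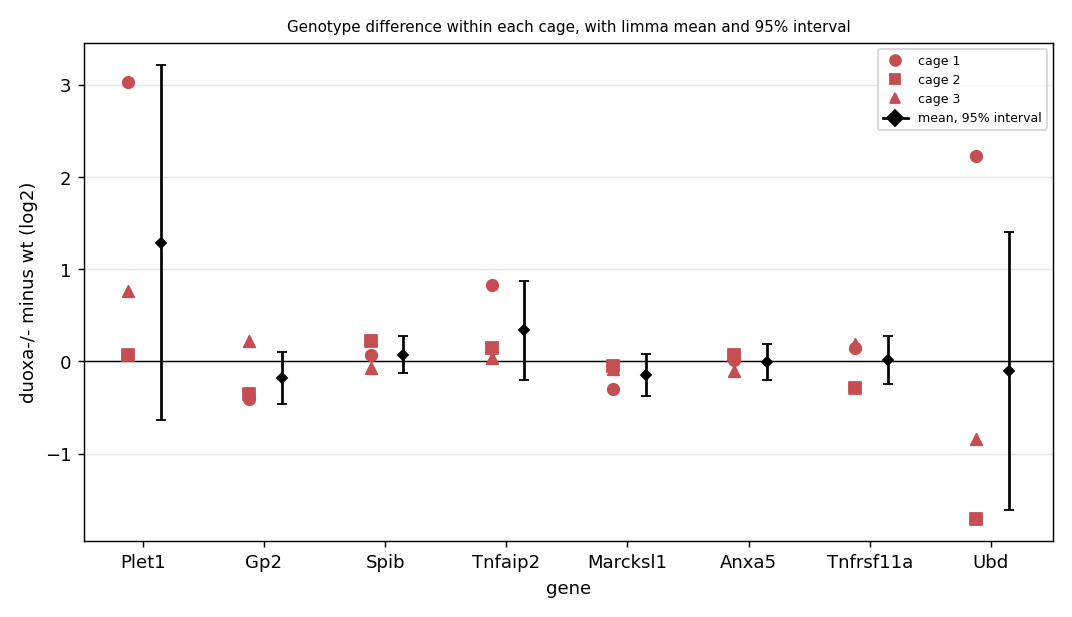
Difference duoxa-/- minus wt (vertical axis, log2) for the 8 genes, as 1 red marker for each cage, with the limma mean and 95% interval in black. Cage 1 gave 3.03 for Plet1 and 2.23 for Ubd, and cage 2 gave 0.07 and -1.71. Every interval includes 0 in the fit shown, which has no cage term and does not use the pairing of pools by cage.

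A limma F-test of the cage terms, fitted together with genotype, gave 0 calls among the 16 member probe sets (0.00222% of all probe sets were called), with adjusted p between 0.877 and 0.977. At an unadjusted p under 0.05 there were 3, both high-range Plet1 probe sets and the brightest of Tnfaip2, against 5.55% of all probe sets. Plet1 was high in both pools of cage 2 and low in both pools of cage 3, and cage 1 held 1 pool of each range.

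Whether the other members follow Plet1 was described by Pearson's r of the log2 values over the 6 pools, with the probe set 1423933_a_at. Since Plet1 lies in 2 separate ranges of 3 pools, r mostly says whether a gene is high in the same 3 pools, the relation cannot be tested within a range, and no p is given. The second probe set of Plet1 had r = 0.989. Among the 13 probe sets of the other members, 1 reached r of at least 0.9, the brightest of Tnfaip2 at 0.964, and 1.98% of all probe sets did. Ubd followed with 0.729, lowered by the duoxa-/- pool of cage 2 and the wt pool of cage 3, and 9.06% of all probe sets had a higher r. Spearman's rho for Ubd was 0.429. The representative probe sets gave r of 0.544 for Tnfrsf11a, 0.0225 for Marcksl1, -0.131 for Spib, -0.215 for Anxa5 and -0.530 for Gp2. Several of these r values were not stable. Marcksl1 had -0.988 after centring within cage, which leaves only the 3 differences within cages, and 0.634 without the wt pools of cages 1 and 3. Spib had a Spearman's rho of 0.429 and an r of 0.617 without the wt pool of cage 2. Anxa5 had 0.438 and Tnfrsf11a -0.0749 without the wt pools of cages 1 and 3. Gp2 stayed below 0 in every alternative that gave it a value, between -0.784 and -0.370 with 1 pool left out. The median r of the 7 genes was 0.0225, and that of all probe sets was -0.0108.

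The members did not, then, share 1 pattern over the pools. For Tnfrsf11a the second probe set gave -0.760, and for Tnfaip2 the others gave 0.525 and 0.139. For Marcksl1, 1415922_s_at, which spanned 0.68, gave -0.548, 1435627_x_at gave -0.532 and 1435415_x_at gave -0.0242. The answer for these genes therefore depends on the probe set. Gp2, dim throughout, was lowest in the duoxa-/- pools of cages 1 and 2, where Plet1 was highest, and highest in the wt pool of cage 1, where Plet1 was low. On the probe sets that stand for them, Marcksl1, Spib and Anxa5 spanned at most 0.37. The r of these probe sets rests on differences of about the size of the spread between pools of most probe sets.

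**Figure D3:**
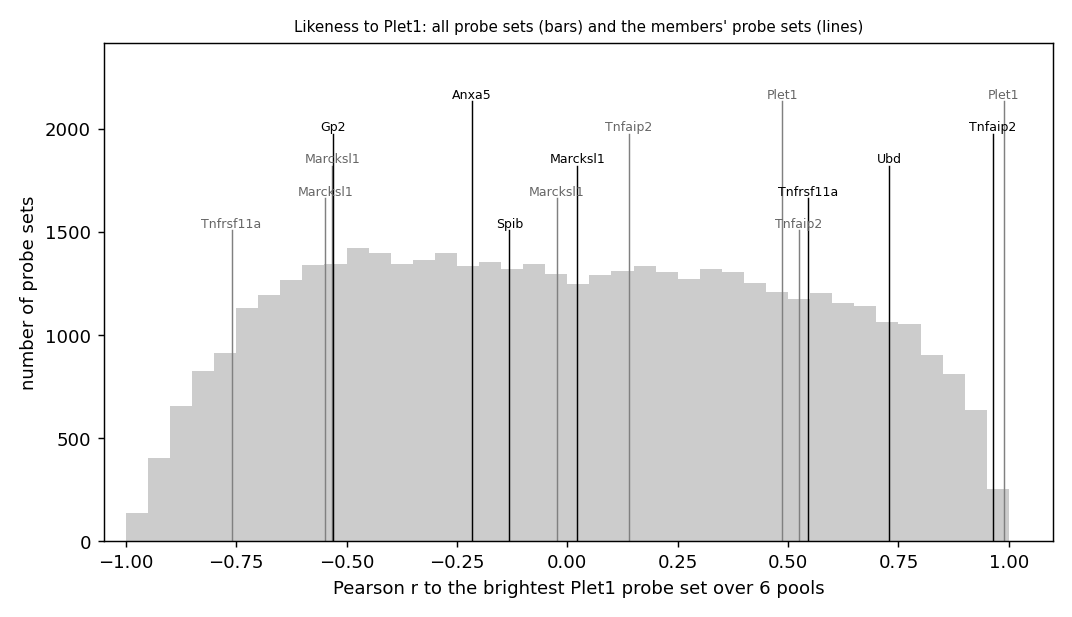
Number of probe sets (vertical axis) by Pearson r to Plet1 over the 6 pools (horizontal axis), with a line for each of the other 15 member probe sets, black for the probe set that stands for a gene and grey for others. Only a Plet1 probe set (0.989) and a Tnfaip2 probe set (0.964) pass 0.9, and the other lines spread over the range that all probe sets cover.

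Other genes of M cells and of the RANK pathway were described in the same way. Of the 15 further M cell genes, 0 were called in either direction between genotypes by limma, 6 were higher and 9 lower in duoxa-/- pools (median difference -0.05), 8 had r above 0 (49.4% of all probe sets did) and 0 reached 0.9. Their mean deviated from its own average by 0.02, 0.02 and -0.05 in duoxa-/- pools and by 0.02, 0.02 and -0.03 in wt pools. Ccl20, the chemokine with which the follicle-associated epithelium draws cells bearing CCR6, read 8.90, 8.49 and 8.20 in duoxa-/- pools and 7.76, 8.07 and 7.89 in wt pools. The genotypes did not overlap, with a difference of 0.62 that limma did not call, and 11.6% of all probe sets do not overlap. Its r to Plet1, 0.783, was the highest of this list, and it is named after its values were seen. The genotypes of 1 other gene of the list did not overlap, in the opposite direction: Tnfrsf9, the T cell costimulatory receptor 4-1BB, read 6.05, 6.02 and 6.14 in duoxa-/- pools and 6.47, 6.196 and 6.25 in wt pools, a difference of -0.23, and it too is named after its values were seen. Pglyrp1, a peptidoglycan-binding protein, read 10.37, 10.48 and 9.94 in duoxa-/- pools and 10.60, 10.85 and 9.91 in wt pools.

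Of 14 genes of RANK and non-canonical NF-κB signalling, 12 were measured and 0 were called between genotypes in either direction, with 6 higher and 6 lower and a median difference of 0.0023. This list includes Tnfrsf11a. Of the 12, 9 had r to Plet1 above 0, against 49.4% of all probe sets, with a median of 0.283, and 0 reached 0.9. The highest were Birc3 (0.815) and Traf6 (0.720), an adaptor of RANK, the second named after its values were seen. The ligand Tnfsf11, which encodes RANKL, was dim: 5.95, 5.91 and 5.62 in duoxa-/- pools and 5.23, 5.51 and 5.63 in wt pools. Its decoy receptor Tnfrsf11b, osteoprotegerin, was also dim and read 5.24, 5.45 and 5.34 in duoxa-/- pools and 5.23, 5.07 and 5.10 in wt pools. It was the 1 gene of the 12 whose genotypes did not overlap, as in 11.6% of all probe sets, with a difference of 0.21 that limma did not call. Relb, the transcription factor at the end of the non-canonical pathway, read 10.04, 10.16 and 10.19 in duoxa-/- pools and 10.27, 10.14 and 10.14 in wt pools. The inhibitor of apoptosis Birc3, an NF-κB target that restrains the pathway, was the brightest of the list and lowest in the wt pool of cage 1 (10.62, against 10.87 to 11.12 in the other pools).

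Genes of any kind were ranked by their r to Plet1. They were taken from 276 genes other than Plet1 whose mean reached the median level. Their highest and lowest pools differed by at least 1 on the log2 scale, a span that 1.67% of all probe sets had. Members were not left out of this ranking. Ubd met both limits, and its r of 0.729 was not among the 10 highest. The r of 0.964 of Tnfaip2 lies between those of the first and the second gene, but its span of 0.94 missed the limit. The highest r belonged to Tlr2, the receptor for bacterial lipoproteins, at 0.991. Tlr2 read 8.81, 8.53 and 7.82 in duoxa-/- pools and 7.52, 8.48 and 7.49 in wt pools, in the same order of pools as Plet1. Next came the acute-phase gene Saa2 (0.961), and Saa1 had 0.904. Saa1 read 13.05, 13.70 and 12.26 in duoxa-/- pools and 10.86, 13.40 and 11.57 in wt pools, and the near-identical transcripts of both genes may not be separated by their probe sets.

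Several of the others act at the mucosal surface. Slc6a14, an amino acid transporter of the apical membrane, had r = 0.951 and read 11.64, 11.48 and 10.22 in duoxa-/- pools and 10.52, 11.48 and 10.49 in wt pools. Muc4, a membrane-bound mucin, had r = 0.941. The manganese exporter Slc30a10 had r = 0.935 and St6galnac1, which adds sialic acid to mucin-type glycans, had 0.925. The sodium-proton exchanger Slc9a3 had r = 0.923, and Cd177, a surface protein best known from neutrophils, had 0.935. Il17a, which encodes the cytokine interleukin-17A of type 17 lymphocytes, had r = 0.911 and read 7.77, 7.99 and 7.28 in duoxa-/- pools and 6.64, 7.995 and 7.07 in wt pools. For all of these the duoxa-/- pools of cages 1 and 2 and the wt pool of cage 2 were the highest, and the genotypes overlapped.

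The 5 genes most opposite to Plet1 were Aqp7 (r = -0.991), a channel for water and glycerol, the sugar transporter Slc2a2 (-0.974), Cyp2d26 of the cytochrome P450 family (-0.970), the iodotyrosine deiodinase Iyd (-0.962) and Spsb4 (-0.955). Cyp2d26 read 9.66, 9.68 and 11.21 in duoxa-/- pools and 10.91, 9.68 and 11.14 in wt pools. Slc2a2 read 7.04, 7.15 and 8.33 in duoxa-/- pools and 8.23, 7.47 and 8.78 in wt pools. These were low in the pools that were high in Plet1. Of the enterocyte genes listed, 11 of 12 were measured and 0 of the 11 had r above 0, where 49.4% of all probe sets did. The median r of the 11 enterocyte genes was -0.745. Their mean deviated by -0.10, -0.27 and 0.14 in duoxa-/- pools and by 0.15, -0.02 and 0.11 in wt pools. With 6 pools and 45037 probe sets, high and low r arise for many genes, as the share of 1.98% at 0.9 or above and of 1.21% at -0.9 or below shows, and r here only orders the genes.

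**Figure D4:**
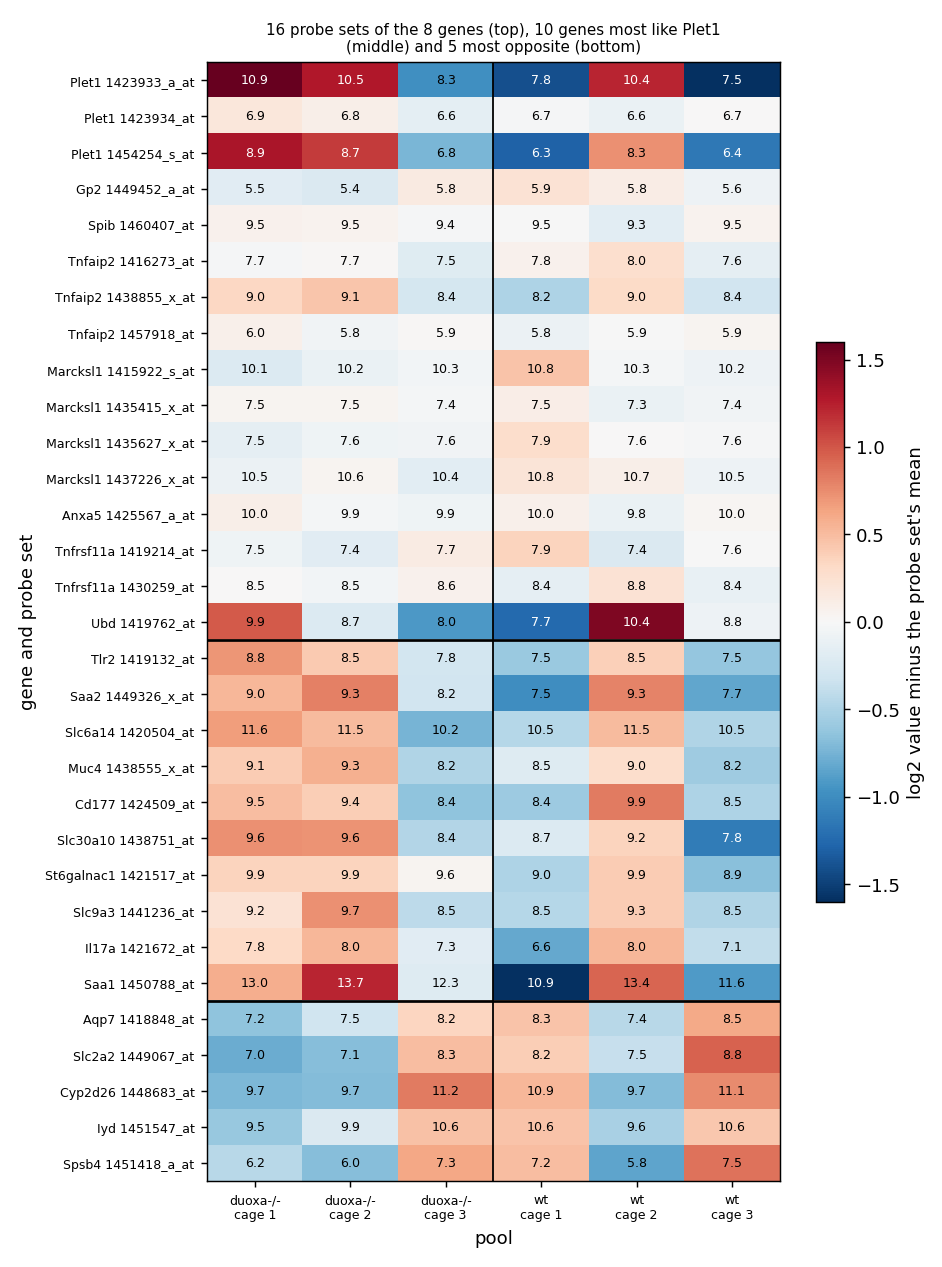
Log2 values (printed) of the 16 member probe sets, the 10 genes most like Plet1 and the 5 most opposite, in 3 duoxa-/- and 3 wt pools, coloured by the deviation from the mean of the probe set and saturated beyond 1.6. The lower blocks were chosen for their likeness to Plet1, while among the members the same colours appear in 2 Plet1 probe sets, 1 Tnfaip2 probe set and partly in Ubd.

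The same rule was applied to Ubd after its values had been seen. The gene most like Ubd was Gbp8, an interferon-induced guanylate-binding protein, with r = 0.994. It read 9.96, 9.33 and 8.97 in duoxa-/- pools and 8.91, 10.33 and 9.50 in wt pools, in the same order of pools. Gbp6 (0.989), Nlrc5 (0.989), the activator of MHC class I genes, Gbp2b (0.988), Cd274 (0.985), which encodes the inhibitory ligand PD-L1, and Tap1 (0.982), the peptide transporter of MHC class I loading, came next. Irgm2 (0.979) and Igtp (0.979), interferon-induced GTPases, were also among the 10. The remaining 2 were the cytotoxic granule genes Gzmb (0.980) and Gzma (0.971). Gzmb read 10.15, 9.28 and 8.77 in duoxa-/- pools and 8.78, 10.73 and 9.72 in wt pools.

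Lists of interferon-induced and lymphocyte genes were set beside Ubd. The interferon- and TNF-induced list, of which 14 of 15 genes were measured, deviated by 0.35, 0.06 and -0.30 in duoxa-/- pools and by -0.46, 0.40 and -0.06 in wt pools, highest and lowest in the same pools as Ubd. Of its 14 genes, 7 were highest in the wt pool of cage 2 and 11 lowest in the wt pool of cage 1. The same list also lay near Plet1: 14 of 14 genes had r to Plet1 above 0 (49.4% of all probe sets did), with a median of 0.822, the highest of the lists used, and Icam1, an adhesion molecule named after its values were seen, had 0.974. The B cell and follicle list had 14 of 16 genes above 0 and a median of 0.509. The T cell list, of which 9 of 12 genes were measured, deviated by 0.10, -0.17 and -0.10 in duoxa-/- pools and by -0.18, 0.27 and 0.08 in wt pools, again highest in the wt pool of cage 2 and lowest in the wt pool of cage 1. Its genes were divided: 5 of 9 were highest in the wt pool of cage 2, while 3, Zap70, Cd3e and Cd4, named after their values were seen, were highest in the wt pool of cage 1, where Ubd was lowest. The defining T cell gene Cd3d lay between 8.77 and 9.60. The part of T cell content in the Ubd values was not tested. Between genotypes 0 genes of both lists were called by limma, with 12 of 14 interferon- and TNF-induced genes higher (median difference 0.09) and 8 of 9 T cell genes lower (median -0.10) in duoxa-/- pools. These counts hide a difference between cages: the mean of each list was higher in the duoxa-/- pool in cage 1 and lower in cages 2 and 3. For the interferon- and TNF-induced list it was 0.35 against -0.46, 0.06 against 0.40 and -0.30 against -0.06.

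**Figure D5:**
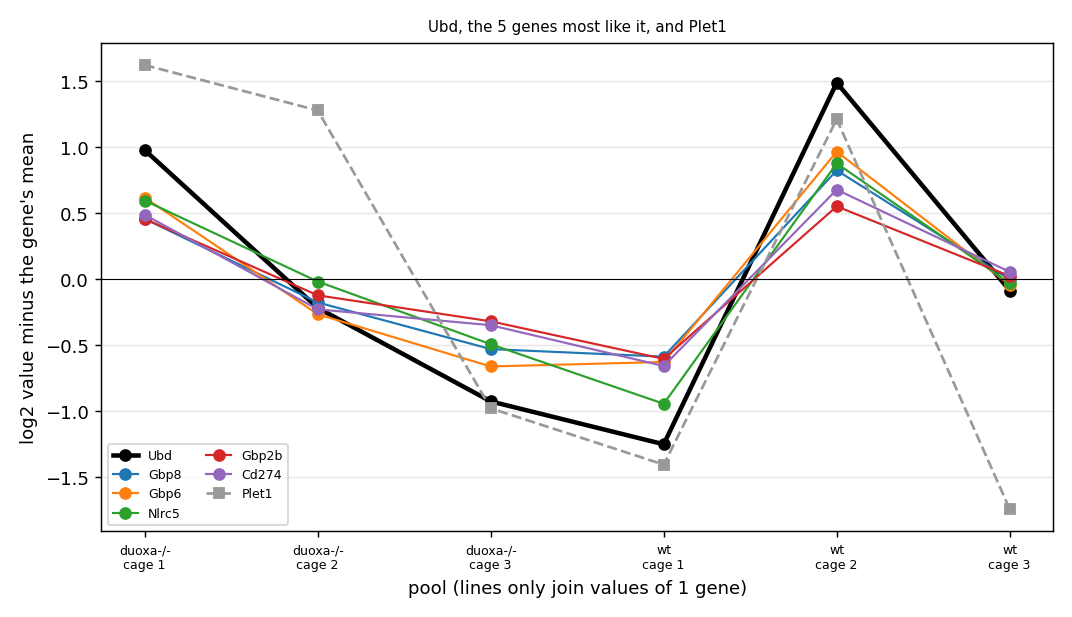
Deviation of the log2 value from the gene's own mean (vertical axis) in 3 duoxa-/- and 3 wt pools for Ubd, the 5 genes most like it and Plet1. Ubd and these genes peak in the wt pool of cage 2, with the duoxa-/- pool of cage 1 second, while Plet1 is also high in the duoxa-/- pool of cage 2 (10.51) and lowest in the wt pool of cage 3 (7.49).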

How the data were processed

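Total RNA of the ileal mucosa was labelled with biotin and hybridised to Affymetrix arrays, 1 for each pool. The authors deposited log2 values, 1 per probe set and array, that came from RMA (affy package) per the submitters' processing notes. Its version: not given in the sources used here. RMA equalises the distributions of the arrays and compresses differences of dim probe sets.

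Of 45101 rows, 64 control probe sets were left out and no filter on low values was used. Gene names came from the platform annotation: 34945 probe sets had 1 symbol, 932 several and 9160 none. Of the first, 34741 matched the RefSeq table of GRCm38.p6 by gene identifier and 0 symbols changed. For genotype differences (duoxa-/- minus wt), R 4.3.3 with limma 3.58.1 was used (lmFit, eBayes; two-sided p adjusted by Benjamini-Hochberg over all 45037 probe sets and called under 0.05) without a cage term, and cages with the moderated F-test. All adjusted p are from limma. The fits were tested on simulated data. Tables and figures were made with Python 3.11.15, pandas 2.3.3 and matplotlib 3.10.9.

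The members, lists and rules were chosen with earlier results of these data known. Named genes are the members, the 10 genes of highest and 5 of lowest r to Plet1, and up to 2 of the brightest genes of a list with defining markers; others are marked. Permutation p-values planned for r were not used, because Plet1 fell into 2 ranges of pools.

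The series' design text makes each cage a litter, so pools are paired by cage. Deviations of same-cage pools from their group means correlated across probe sets with r = -0.15, 0.069 and 0.29 in cages 1, 2 and 3, and those of other pairs with r of -0.38 to 0.38, so the data alone do not show the pairing.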

Additional observations from a re-analysis of the deposited data

How the results depend on the processing

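With cage as a replicate block, 0 probe sets were called between genotypes, as without it, and the adjusted p of the 16 member probe sets lay between 0.74 and 0.989, so the block changed no call of a member. It did change standard errors: 0.48 with the block and 0.85 without it for Plet1, and 0.16 and 0.24 for Tnfaip2. For Ubd they were 0.64 and 0.66, and for Gp2 0.135 and 0.124. Intervals are given only for the fit without the block. Counts of genotype calls over all probe sets were 0 under the 5 other settings of normalization, weighting and filtering and 0 to 1 when a pool or a cage was left out, the 1 being Duoxa2 without the wt pool of cage 3. At an unadjusted p under 0.05 the count was 2692 of 45037. Calls between cages, 1 in all, came to 2 with 1 probe set per gene and 3 with array weights. They came to 0 without probe sets ending in _x_at, _s_at or _a_at, a setting that leaves out the called probe set itself. When a pool or a cage was left out, they came to between 1 and 23. The 1 call was an unnamed probe set, 1425871_a_at, chosen after its value was seen.

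Differences near 0 changed sign: Anxa5 to 0.0041 and Ubd to 0.0098 with array weights, and Tnfrsf11a to -0.012 with quantile normalization again. When a pool or a cage was left out, Anxa5 lay between -0.0597 and 0.041, Spib between -0.00087 and 0.15, Tnfrsf11a between -0.0692 and 0.17, and Ubd between -1.27 and 0.69. Plet1 lay between 0.42 with cage 1 left out and 2.22 with the wt pool of cage 2 left out. Tnfaip2 lay between 0.088 with cage 1 left out and 0.57 with the wt pool of cage 2 left out, Gp2 between -0.38 with cage 3 left out and -0.070 with cage 1 left out, and Marcksl1 between -0.22 with the wt pool of cage 3 left out and -0.071 with cage 1 left out. No member was called in these fits.

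The median r of the other 7 members to Plet1, 0.0225, was 0.429 by Spearman's rho, 0.404 after centring within genotype and 0.438 without the wt pools of cages 1 and 3, the 2 farthest from the Plet1 median. It lay between -0.169 and 0.433 when 1 pool was left out, while Tnfaip2 stayed between 0.958 and 0.981 and Ubd between 0.644 and 0.852. Centred within cage, the median was 0.222. With the mean of all its probe sets, Tnfrsf11a had an r of -0.559 in place of 0.544, and Marcksl1 had -0.426 in place of 0.0225. The cause of these shifts was not tested. Members read only by probe sets ending in _a_at, _s_at or _x_at have no value without those, and Gp2 has none when dim probe sets are left out. RMA values carry no detection calls, so what dim probe sets such as Gp2 measured is not known.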

Other observations

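Among lists of other mucosal cells that stand beside no member above, the macrophage and dendritic cell list had 12 of 12 genes measured and 10 of them with r above 0 to Plet1, against 49.4% of all probe sets. Of these, 3 reached 0.9, as 1.98% of all probe sets did, and the median r of the 12 was 0.569. Flt3 (-0.201) and Siglech (-0.377), named after their values were seen, had r below 0. Lyz2, the lysozyme of myeloid cells, was the brightest gene of the list and read 12.79, 12.75 and 12.62 in duoxa-/- pools and 12.63, 12.74 and 12.61 in wt pools, and Csf1r, the receptor of macrophage growth factor, read 11.40, 11.38 and 11.08 in duoxa-/- pools and 11.19, 11.42 and 11.06 in wt pools. The 3 pools high in Plet1 were the 3 highest in both, over spans of 0.18 and 0.36. They were also the 3 highest in Lyz1, the lysozyme of the Paneth cell list, which averaged 14.61 and had r = 0.959. The part of Lyz1 transcripts in the Lyz2 values was not tested. The 6 enteroendocrine genes all had r under 0 (median -0.797), where 49.4% of all probe sets had r above 0. The mean of these 6 genes deviated by -0.23, -0.17 and 0.37 in duoxa-/- pools and by 0.06, -0.22 and 0.18 in wt pools. Gcg, which encodes the glucagon-like peptides, was the brightest and read 12.03, 11.89 and 12.18 in duoxa-/- pools and 12.31, 12.03 and 12.25 in wt pools.

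Lists of plasma cells (median r 0.726 over 6 genes), Paneth cells (0.713 over 5), goblet cells (-0.06 over 8), stem and transit-amplifying cells (-0.065 over 8) and tuft cells (-0.136 over 6) are given as values only. The pancreatic lipase-related gene Pnliprp1, of the acinar list, read 7.22, 9.04 and 6.15 in duoxa-/- pools and 10.28, 6.88 and 7.39 in wt pools, a span of 4.13 with overlapping genotypes. It was named after its values were seen.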
